A study of Mus musculus with 4 samples.

Results

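The genes described here are 10 germline genes, Ddx4, Sycp3, Dazl, Tex19.1, Mael, Taf7l, Stk31, Hormad1, Tdrkh and Brdt, out of 25209 genes in the count tables. They were taken by symbol, as genes of the kind that DNA methylation keeps silent outside the germline, and were read in barcodes with at least 500 UMIs and 500 genes, called cells below. A UMI (unique molecular identifier) marks a single captured RNA molecule. The choice of these genes used their levels in LSD1 KO and WT cells and in cells gated by marker genes, so those levels are given as a description. Where a member is said to be called in the fit over all genes, the call restates that choice and is no independent test. DNA methylation was not measured in these libraries, and whether the genes were methylated in either genotype was not checked.

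Droplet scRNA-seq compared LSD1 KO and WT embryoid bodies (EBs) at day 6, with 2 libraries per genotype, called replicates 1 and 2. LSD1, encoded by Kdm1a, is a histone demethylase, and the LSD1 KO embryonic stem cells (ESCs) were V6.5 mouse ESCs in which CRISPR/Cas9 removed the Kdm1a promoter and first exon. WT EBs came from V6.5 ESCs with Kdm1a in place. Both were kept in 2i and LIF, which hold ESCs in a naive state, and were then grown as hanging drops in serum medium without those additions. The libraries are described as biological replicates, and the number of KO clones behind the 2 LSD1 KO libraries is not given in the sources used here.

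The 4 libraries held 72285943 to 75406512 UMIs each. Cells numbered 5693 and 3045 in LSD1 KO and 4393 and 6828 in WT, with a median of 11402 and 20304 UMIs per cell in LSD1 KO and 11698 and 9211 in WT. Any pair of libraries shared 3 to 15 cell barcodes. Kdm1a stood at 1.16 and 0.84 CPM (UMIs scaled to a common library total) in LSD1 KO and 217 and 229 CPM in WT. Its log2 fold change was -7.92 by edgeR's quasi-likelihood test (adjusted p = 0.000131). The counts give no position within a gene, so whether these UMIs lie outside the deleted part was not checked. An epiblast marker gate took in 41.9% and 52.3% of the cells in LSD1 KO, against 2.34% and 6.02% in WT, while the gates for endoderm, heart and lateral mesoderm, mesenchyme and endothelium held 14 cells or fewer in each LSD1 KO library. In sums over a whole EB, fewer cells of a type and less RNA per cell cannot be told apart.

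Germ cells use a set of genes for meiosis, for RNA control and for silencing of transposons that other cells do not need. Many of their promoters are rich in CpG dinucleotides and gain DNA methylation after implantation, through the DNA methyltransferases, and the methylation is lost again when primordial germ cells form. Before methylation is in place, some of these promoters are held silent by a variant Polycomb complex whose MGA and MAX subunits bind the E-box CACGTG and whose E2F6 subunit binds sites of the form GCGGGAA.

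The promoters of the members carry these letters in different arrangements, and 6 of them are printed to show it. The windows come from RefSeq (GRCm38.p6 table) and were placed by 1 exact match each in NCBIM37, the mm9 build named in the submitters' processing notes. Each run gives the 250 bases before the annotated start, 5′ to 3′ on the gene's strand, with CACGTG and GCGGGAA in capitals.
Ddx4 (chr13:113442519-113442768, minus strand): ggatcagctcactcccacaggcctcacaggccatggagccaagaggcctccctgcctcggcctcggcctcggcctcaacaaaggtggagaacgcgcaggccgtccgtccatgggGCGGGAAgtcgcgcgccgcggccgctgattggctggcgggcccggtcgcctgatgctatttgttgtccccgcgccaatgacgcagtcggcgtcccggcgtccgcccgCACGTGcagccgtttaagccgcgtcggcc
Sycp3 (chr10:87922082-87922331, plus strand): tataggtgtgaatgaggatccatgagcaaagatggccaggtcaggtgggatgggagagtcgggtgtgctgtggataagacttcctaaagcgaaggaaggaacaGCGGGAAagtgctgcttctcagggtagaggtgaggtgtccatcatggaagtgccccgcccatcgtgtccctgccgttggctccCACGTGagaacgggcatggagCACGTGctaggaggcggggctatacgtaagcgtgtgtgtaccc
Hormad1 (chr3:95363349-95363598, plus strand): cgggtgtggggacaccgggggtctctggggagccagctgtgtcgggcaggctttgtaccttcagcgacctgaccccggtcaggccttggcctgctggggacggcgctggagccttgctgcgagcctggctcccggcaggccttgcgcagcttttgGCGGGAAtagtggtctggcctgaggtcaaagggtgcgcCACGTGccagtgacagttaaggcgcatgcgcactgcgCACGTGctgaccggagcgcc
Mael (chr1:168168876-168169125, minus strand): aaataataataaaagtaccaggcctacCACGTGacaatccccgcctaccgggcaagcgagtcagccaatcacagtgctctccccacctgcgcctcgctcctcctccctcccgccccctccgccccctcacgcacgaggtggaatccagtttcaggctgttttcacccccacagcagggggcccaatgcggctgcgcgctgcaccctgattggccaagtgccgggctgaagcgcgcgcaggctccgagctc
Taf7l (chrX:131011030-131011279, minus strand): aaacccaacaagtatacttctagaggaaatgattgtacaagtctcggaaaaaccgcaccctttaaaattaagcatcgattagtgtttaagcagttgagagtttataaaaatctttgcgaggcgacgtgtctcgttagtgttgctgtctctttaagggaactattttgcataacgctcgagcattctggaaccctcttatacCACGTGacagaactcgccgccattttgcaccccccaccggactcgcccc
Dazl (chr17:50432946-50433195, minus strand): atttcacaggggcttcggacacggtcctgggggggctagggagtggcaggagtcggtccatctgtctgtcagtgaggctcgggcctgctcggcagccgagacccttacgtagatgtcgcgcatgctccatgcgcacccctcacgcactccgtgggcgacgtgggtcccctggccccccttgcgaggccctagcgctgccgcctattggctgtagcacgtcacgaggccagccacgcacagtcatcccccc

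In the windows of 300 bases, from 250 before to 50 after the start, CACGTG was found in 7 of the 10 members, against 7.24% of 27025 RefSeq windows, 9.66% of the 13284 windows of genes tested here and 11.4% of the 9857 windows with a CpG observed over expected ratio of at least 0.6. CACGTG reads the same on both strands, and GCGGGAA was searched on both strands; the motifs did not overlap. Ddx4, Sycp3 and Hormad1 held both motifs, and 0.463% of all windows did. In Ddx4 the E-box began 29 bases before the start and GCGGGAA 136 bases before it. Sycp3 and Hormad1 had 2 E-boxes each, the nearest ones beginning 43 and 20 bases before the start. Taf7l, Stk31 and Brdt had 1 E-box within 78 bases of the start, and Mael had 1 that began 223 bases before it. Dazl, Tex19.1 and Tdrkh had neither motif in the window. The CpG observed over expected ratio ranged from 0.575 in Tex19.1 to 1.03 in Taf7l, with a median of 0.788 over the members and 0.389 over all windows. A match describes letters and not a bound site, and neither binding nor methylation was measured.

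**Figure D1:**
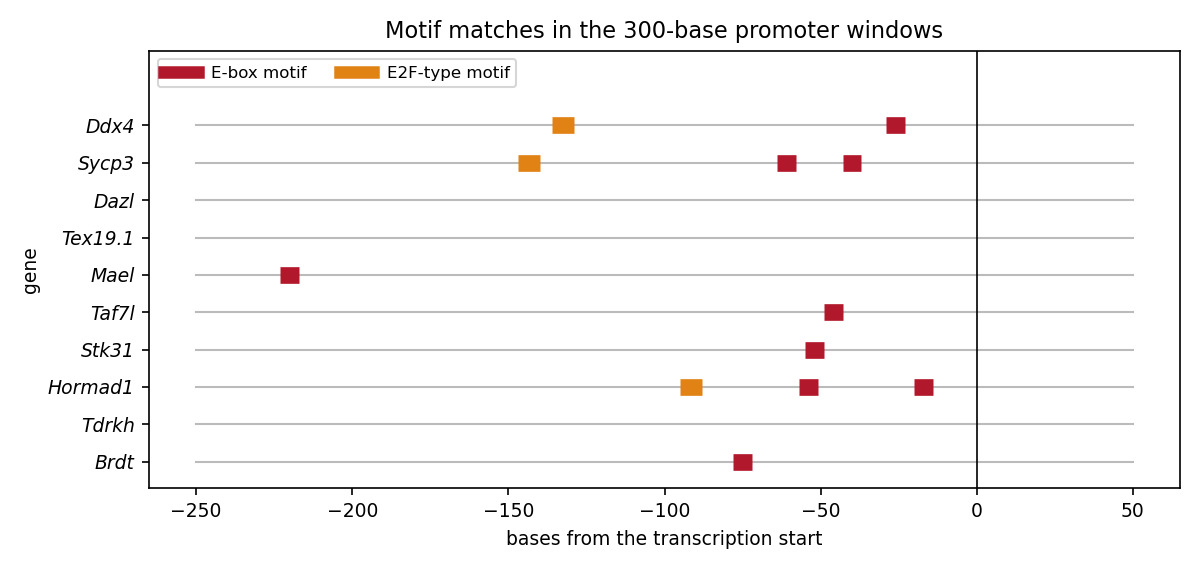
Positions of CACGTG and GCGGGAA matches in the promoter windows of the 10 members, one row per gene, with distance from the annotated start in bases on the horizontal axis. Ddx4, Sycp3 and Hormad1 hold both motifs, 4 members hold CACGTG alone, and Dazl, Tex19.1 and Tdrkh hold neither.

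In whole EBs all 10 members had a higher CPM in both LSD1 KO libraries than in both WT libraries. The summed level of the members was 109 and 123 CPM in LSD1 KO and 21.5 and 29.1 CPM in WT. Fold changes were estimated with edgeR on UMIs summed over the cells of each library, and 10 of 10 members were called higher in LSD1 KO at an adjusted p below 0.05, where 22.6% of the 16953 genes tested were called higher and 44.2% were called in either direction. Both LSD1 KO libraries lay above both WT libraries for 47.1% of all genes tested. A log2 fold change of 2 or more with a call was found for 8 of 10 members, all but Tdrkh and Brdt, and for 7.07% of all genes tested. The median log2 fold change of the members was 3.26, against -0.00 over all genes tested. The members were chosen with this contrast in view, so nothing is read from these counts. Dazl, Mael and Taf7l passed the filter on low counts only through their LSD1 KO level.

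**Figure D2:**
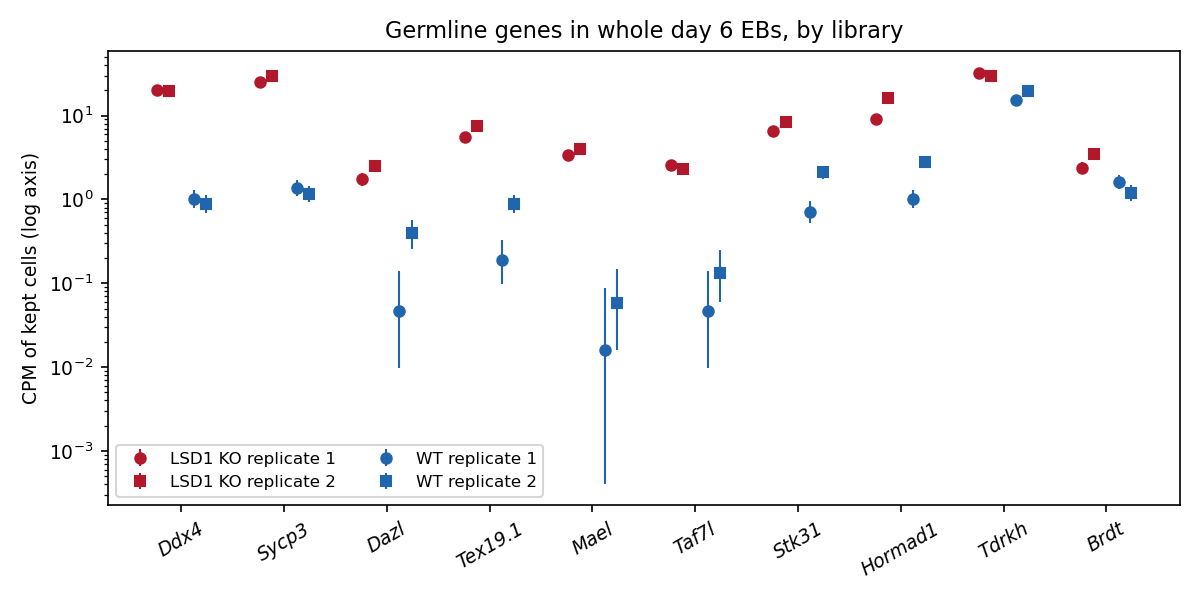
Level of each member in each library, in CPM on a log axis, with LSD1 KO libraries left of WT libraries and bars for the exact 95% Poisson interval of the count. The 2 LSD1 KO points lie above the 2 WT points for every member, by the widest gap for Mael and the narrowest for Tdrkh and Brdt.

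Ddx4 and Mael act in the cytoplasm of germ cells, in the perinuclear granules where piRNAs are made. Ddx4 (chr13:113388541-113442518), the mouse Vasa homologue and an RNA helicase, stood at 20.2 and 19.7 CPM in LSD1 KO and at 1.03 and 0.89 CPM in WT. The LSD1 KO libraries were nearly alike, and the log2 fold change was 4.25 (SE 0.15). Mael (chr1:168131516-168168875), which is needed for transposon silencing in the mouse testis, had 229 and 250 UMIs in LSD1 KO and 1 and 4 UMIs in WT. Its levels were 3.42 and 3.97 CPM in LSD1 KO and 0.02 and 0.06 CPM in WT, and its log2 fold change of 6.41 (SE 0.46) was the largest among the members, at 5.77 without WT replicate 1 and 7.62 without WT replicate 2. Tdrkh (chr3:94217218-94236555), a Tudor and KH domain protein that serves the trimming of piRNA precursors, was the opposite case. It stood at 32.3 and 29.4 CPM in LSD1 KO and was already at 15.5 and 19.5 CPM in WT, with a log2 fold change of 0.68 (SE 0.16). Tdrkh was the most abundant member in each WT library and supplied 981 of the 1365 member UMIs in WT replicate 1 and 1337 of 1999 in WT replicate 2. Without LSD1 KO replicate 1 its log2 fold change was 0.62 and was not called.

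Sycp3 and Hormad1 build the axes of meiotic chromosomes. Sycp3 (chr10:87922314-87935981), a component of the lateral element of the synaptonemal complex, stood at 25.5 and 29.8 CPM in LSD1 KO and 1.37 and 1.17 CPM in WT. Its log2 fold change was 4.32 (SE 0.16), close to that of Ddx4. Exons of Sycp3 overlap those of Chpt1 on the opposite strand, and Chpt1, a phospholipid synthesis gene, was at 10.1 and 12.4 CPM in LSD1 KO and 8.87 and 7.14 CPM in WT. Hormad1 (chr3:95363599-95391593), a HORMA domain protein of unsynapsed axes, had 9.18 and 16.4 CPM in LSD1 KO and 1.03 and 2.83 CPM in WT. The replicates of both genotypes were spread for Hormad1, and its log2 fold change was 2.58 (SE 0.54), with 2.01 to 3.55 when a library was left out.

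Dazl, Tex19.1 and Stk31 serve RNA control and transposon defence in germ cells, and their WT libraries were unlike each other. Dazl (chr17:50418719-50432924), an RNA-binding protein that sustains germ cell differentiation, had 117 and 156 UMIs in LSD1 KO and 3 and 27 UMIs in WT, which is 1.75 and 2.48 CPM in LSD1 KO and 0.05 and 0.39 CPM in WT. Tex19.1 (chr11:121007457-121009633), which restrains retrotransposons in the mouse testis and placenta, stood at 5.60 and 7.54 CPM in LSD1 KO and 0.19 and 0.89 CPM in WT. Its near copy Tex19.2 had 18 and 31 UMIs in LSD1 KO and 2 and 9 UMIs in WT, and reads shared between the copies could not be assigned. Stk31 (chr6:49345603-49419500), a germ cell protein with Tudor and kinase domains, was at 6.55 and 8.36 CPM in LSD1 KO and 0.71 and 2.10 CPM in WT. WT replicate 2 was the higher WT library for Dazl, Tex19.1 and Stk31. The log2 fold changes were 3.08 (SE 0.75) for Dazl, 3.44 (SE 0.64) for Tex19.1 and 2.25 (SE 0.51) for Stk31. Without WT replicate 1 they were 2.25 for Dazl, 2.71 for Tex19.1 and 1.66 for Stk31, and without WT replicate 2 they were 5.33, 5.01 and 3.30 in the same order.

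Taf7l and Brdt work on transcription and chromatin in male germ cells. Taf7l (chrX:130994657-131011029), a germ cell paralogue of a TFIID subunit, had 171 and 147 UMIs in LSD1 KO and 3 and 9 UMIs in WT. Its levels were 2.55 and 2.33 CPM in LSD1 KO and 0.05 and 0.13 CPM in WT, with a log2 fold change of 4.59 (SE 0.45) that was 4.03 without WT replicate 1 and 5.54 without WT replicate 2. Brdt (chr5:107760178-107816077), the testis member of the BET bromodomain family, stood at 2.40 and 3.44 CPM in LSD1 KO and 1.63 and 1.20 CPM in WT. Its log2 fold change was 0.93 (SE 0.29), and the call was lost without LSD1 KO replicate 2 (0.63), without WT replicate 1 (1.12) and without WT replicate 2 (0.76). Set beside the promoters printed above, the 7 members with an E-box spanned log2 fold changes of 0.93 to 6.41 and the 3 without one spanned 0.68 to 3.44, and these ranges overlap.

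Median depth differed between libraries, so shares of cells were compared after each cell was thinned to 5000 UMIs, which used 4363 and 2176 cells of LSD1 KO and 3067 and 5667 cells of WT. At that depth the share of cells with a Sycp3 UMI was 10.9% and 11.9% in LSD1 KO and 0.52% and 0.41% in WT. For Ddx4 the share was 8.98% and 8.55% in LSD1 KO and 0.42% and 0.35% in WT. Mael was seen in 1.81% and 2.07% of LSD1 KO cells, against 0 of 3067 cells in WT replicate 1, which allows a share of up to 0.0978%, and 1 of 5667 cells in WT replicate 2. At least 1 member was seen in 36.5% and 38.7% of cells in LSD1 KO, against 9.10% and 11.8% in WT, and 3 or more members in 1.63% and 2.07% of cells in LSD1 KO, against 0 of 3067 cells (up to 0.0978%) and 2 of 5667 cells in WT. Without thinning, the mean share with any member was 58.5% in LSD1 KO and 20.1% in WT.

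**Figure D3:**
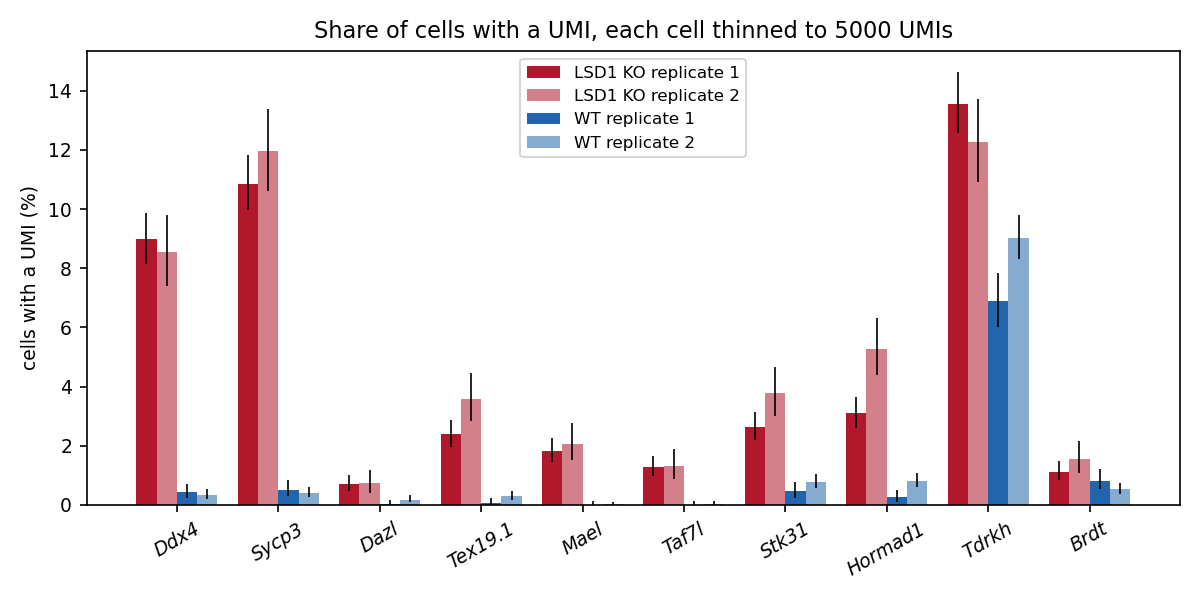
Share of cells with at least 1 UMI of each member, in percent, with each cell thinned to 5000 UMIs, LSD1 KO bars left of WT bars and lines for the exact 95% binomial interval, which covers counting error only. Ddx4 and Sycp3 were seen in 8.55% to 11.9% of cells in LSD1 KO and 0.35% to 0.52% in WT, and Tdrkh was seen in both genotypes.

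Among the thinned cells, UMIs of both Ddx4 and Sycp3 were found in 73 and 42 cells of LSD1 KO and in 0 and 1 cells of WT. The product of the shares of the 2 genes gives 42.6 and 22.2 cells in LSD1 KO and 0.07 and 0.08 cells in WT. It is taken over whole libraries, and both genes differ between gates in LSD1 KO. The part of those differences in the counts was not tested. The endothelium gate held 7 cells in each LSD1 KO library, so no level is given for it there. In the WT endothelium gate, whose median depth was 17528 and 10115 UMIs, Ddx4 and Sycp3 had no UMI in 120 and 98 thinned cells, which allows shares of up to 2.50% and 3.06%. Without thinning, Ddx4 was seen there in 1 of 128 cells of WT replicate 1. Barcodes under 100 UMIs, taken here as a measure of free RNA, carried Ddx4 at 18.0 and 12.2 CPM in LSD1 KO and 1.65 and 1.23 CPM in WT. Each such barcode held a mean of 1.77 to 3.51 UMIs, and the part of free RNA in the shares of cells was not tested.

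Marker gates were then used to place the members among cell states. A cell entered the gate for which the largest share of a fixed marker list was seen, with at least 3 of its markers, and gates under 30 cells in a library are given without a level. In the epiblast gate, defined by genes such as Pou5f1, Nanog and Utf1, the members summed to 130 and 136 CPM in LSD1 KO (2387 and 1593 cells) and 48.2 and 67.9 CPM in WT (103 and 411 cells). In the neuron gate, defined by genes such as Nefm, Tubb3 and Stmn2, they summed to 83.8 and 77.5 CPM in LSD1 KO (868 and 312 cells) and 37.2 and 36.0 CPM in WT (69 and 98 cells). In the primitive streak gate, defined by genes such as T and Mixl1, the sums were 62.6 and 82.9 CPM in LSD1 KO (577 and 36 cells) and 31.3 and 19.4 CPM in WT (31 and 94 cells). The LSD1 KO sum was above the WT sum in all 3 gates. Without Tdrkh, the epiblast gate sums were 96.4 and 109 CPM in LSD1 KO and 14.1 and 35.0 CPM in WT. The neuron gate sums were then 52.2 and 45.2 CPM in LSD1 KO and 6.77 and 9.81 CPM in WT. Those of the streak gate were 31.2 and 42.4 CPM in LSD1 KO and 1.56 and 1.94 CPM in WT, the WT values from 1 and 2 UMIs.

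The gates are not pure cell types. In LSD1 KO, 1577 and 1262 cells of the epiblast gate and 589 and 226 cells of the neuron gate also passed another gate. Neuron gate cells had a median of 3 epiblast markers in both LSD1 KO libraries, against 1 in both WT libraries. Epiblast gate cells had a median of 3 and 4 neuron markers in LSD1 KO and 2 and 1 in WT, so this gate too held unlike cells in the 2 genotypes. In the streak gate, 512 of 577 and 34 of 36 LSD1 KO cells passed another gate, against 18 of 31 and 41 of 94 in WT. Streak gate cells had a median of 4 and 5 epiblast markers in LSD1 KO and 1 in both WT libraries. In WT, 18 of 31 and 70 of 94 streak gate cells had only the minimum of 3 markers. The cells passing a second gate were kept, no doublets were removed, and their part in the gate levels was not tested. Where they were left out, the mean sum in LSD1 KO was 153 CPM in the epiblast gate and 111 CPM in the neuron gate, against 133 and 80.6 CPM with them. Over all the gate alternatives, this one included, the WT mean sum was 50.9 to 59.6 CPM in the epiblast gate. In the WT neuron gate it was 35.2 to 37 CPM.

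Ddx4 and Sycp3 were higher in both LSD1 KO libraries than in both WT libraries in each of these 3 gates. Ddx4 stood at 23.5 and 21.3 CPM in the LSD1 KO epiblast gate, against 2.65 and 2.46 CPM in the WT epiblast gate. In the neuron gate Ddx4 was at 17.3 and 13.6 CPM in LSD1 KO and 1.35 and 1.64 CPM in WT. In the streak gate Ddx4 had 71 and 8 UMIs in LSD1 KO, or 8.69 and 7.71 CPM, and 0 UMIs in both WT libraries, which allows up to 4.69 and 2.90 CPM. Sycp3 followed the same order of gates in LSD1 KO, at 30.1 and 34.3 CPM in the epiblast gate, 18.8 and 16.0 CPM in the neuron gate and 11.6 and 11.6 CPM in the streak gate. Its WT levels were 3.53 and 4.35 CPM in the epiblast gate, 1.35 and 1.64 CPM in the neuron gate and 0 in the streak gate. In the barcodes under 100 UMIs of LSD1 KO, Sycp3 was at 22.9 and 17.8 CPM, above its neuron and streak gate levels in the same libraries. The 18.0 and 12.2 CPM of Ddx4 in those barcodes were above its streak gate levels and close to its neuron gate levels. The part of free RNA in these gate levels was not tested.

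Hormad1 was the member with the largest share of its UMIs in the naive, epiblast and germ cell gates of LSD1 KO. It was at 14.4 and 21.3 CPM in the LSD1 KO epiblast gate and at 2.51 and 2.48 CPM in the LSD1 KO neuron gate, while it was at 4.42 and 4.73 CPM in the WT epiblast gate. The naive, epiblast and germ cell gates together held 50.8% and 69.4% of all UMIs in LSD1 KO and 82.9% and 90.7% of the Hormad1 UMIs. Dazl, with 74.4% of its UMIs in those gates, came next in LSD1 KO replicate 1, and Tex19.1, with 88.8%, came next in replicate 2. Dazl had 4 UMIs in the neuron gate of each LSD1 KO library. The genotypes overlapped in the epiblast gate for Stk31, at 8.90 and 9.22 CPM in LSD1 KO and 1.77 and 12.9 CPM in WT, where WT replicate 2 was the highest library. Tex19.1 was at 7.02 and 8.88 CPM in LSD1 KO and 0.44 and 6.24 CPM in WT there. Mael was further apart, at 4.42 and 4.79 CPM in LSD1 KO and 0.44 and 0.38 CPM in WT. Tdrkh did not separate the genotypes within the epiblast gate, at 33.5 and 27.1 CPM in LSD1 KO and 34.0 and 32.9 CPM in WT, and the neuron gate held it at 31.7 and 32.2 CPM in LSD1 KO and 30.5 and 26.2 CPM in WT.

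**Figure D4:**
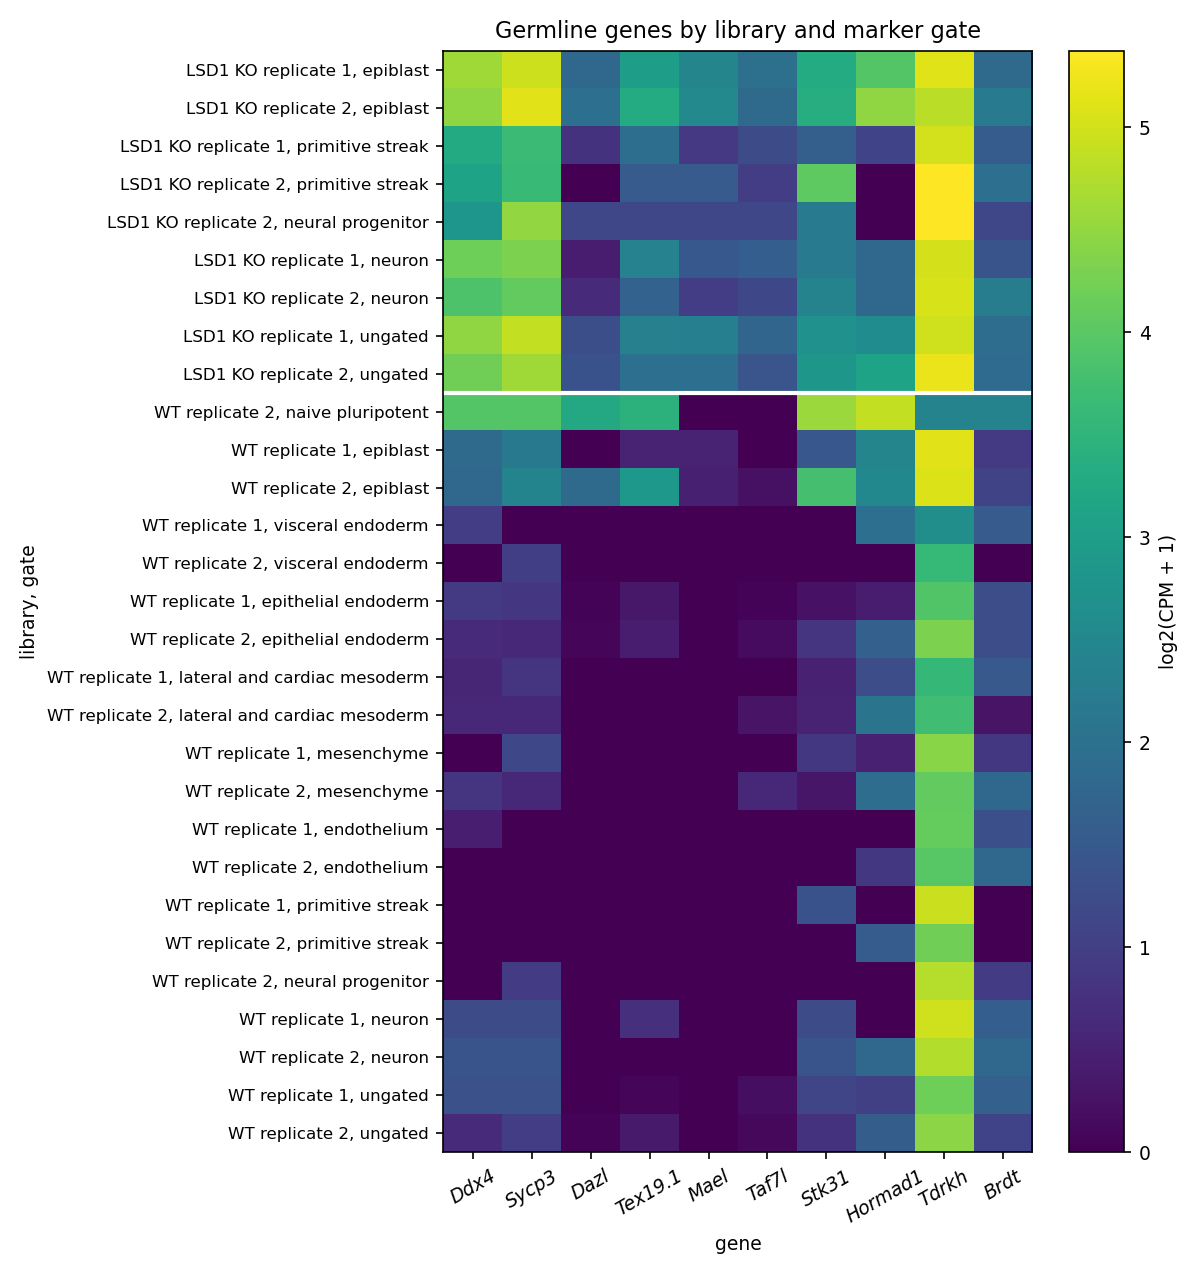
Level of each member in each marker gate with at least 30 cells, as log2(CPM + 1) on a colour scale, with members in columns and each gate and library in a row, LSD1 KO rows above WT rows. Ddx4 and Sycp3 were higher in the LSD1 KO rows than in the WT rows of the same gate, and Tdrkh was present in every row.

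Some members had a high level in a small WT gate. In the naive pluripotent gate of WT replicate 2, with 62 cells marked by genes such as Esrrb, Klf4 and Zfp42, of which 40 also passed another gate, the members summed to 107 CPM, with Hormad1 at 28.4, Stk31 at 22.8, Ddx4 and Sycp3 at 14.2 each, Tex19.1 at 9.96 and Dazl at 8.53 CPM. Tdrkh was at 4.27 CPM there, below its 19.5 CPM over WT replicate 2. Mael and Taf7l had 0 UMIs there, and with 703132 UMIs in the gate a count of 0 allows up to 4.27 CPM. The naive, epiblast and germ cell gates held 4.4% and 9.2% of all WT UMIs. In WT replicate 2 they held 25 of the 27 Dazl UMIs, 104 of the 144 Stk31 UMIs and 47 of the 61 Tex19.1 UMIs, and in WT replicate 1 they held 2 of 3, 13 of 45 and 3 of 12. Most UMIs of 6 other members lay outside those gates in WT replicate 2, where they held 26 of 61 for Ddx4, 35 of 80 for Sycp3, 58 of 194 for Hormad1, 182 of 1337 for Tdrkh, 9 of 82 for Brdt and 1 of 9 for Taf7l. The endothelium, mesenchyme, endoderm and heart and lateral mesoderm gates of WT held no Mael UMI, which allows up to 0.12 CPM in the best covered and 3.03 CPM in the least covered of them, and Dazl had 1 UMI in the epithelial endoderm gate of each library and none in the rest of them. Without Tdrkh, the members summed to 3.95 and 5.91 CPM in the WT epithelial endoderm gate and 4.86 and 5.13 CPM in the WT heart and lateral mesoderm gate.

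Cells outside the naive, epiblast and germ cell gates, a comparison chosen after the data were seen, numbered 4728 in LSD1 KO and 10585 in WT. There 8 of 10 members were called higher in LSD1 KO, where 20.3% of 16380 genes were called higher and 39.1% were called in either direction. The choice of the members also used their levels across gates, so nothing is read from this count. Of the 8, Dazl, Mael and Taf7l had passed the filter in whole EBs only through LSD1 KO. Tex19.1, at 0.15 and 0.22 CPM in WT outside those gates, also needed LSD1 KO to pass the filter there. Ddx4 was at 16.6 and 16.1 CPM in LSD1 KO and 0.91 and 0.56 CPM in WT, and Sycp3 at 20.8 and 19.8 CPM in LSD1 KO and 0.91 and 0.72 CPM in WT. Mael had 119 UMIs in LSD1 KO and 0 in WT, so it was at least 93.3-fold higher in LSD1 KO, with the WT level set at 3 counts over both WT libraries. Dazl had 30 and 27 UMIs in LSD1 KO and 1 and 2 in WT. Hormad1 stood at 3.19 and 4.97 CPM in LSD1 KO and 0.76 and 2.19 CPM in WT, with a log2 fold change of 1.25 (SE 0.53) that was not called, against 2.58 with all cells. Brdt, at 0.69 (SE 0.31), was not called either. The median log2 fold change of the members there was 4.05, with Mael at its fitted value or at its bound. Cells tied between gates and cells of the neuron and streak gates were kept in this comparison. The median count of epiblast markers in the neuron and streak gates was higher in LSD1 KO than in WT.

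Of 6 germ cell markers, none was at 0 in any library, and the list summed to 27.3 and 31.1 CPM in LSD1 KO and 26.6 and 46.4 CPM in WT. The germ cell gate held 3 and 5 cells in LSD1 KO and 5 and 28 cells in WT. Prdm1, a regulator of primordial germ cell fate that endoderm also uses, was lower in both LSD1 KO libraries, at 2.76 and 3.16 CPM against 19.4 and 16.2 CPM in WT. Prdm14, a germ cell and naive pluripotency factor, was also lower, at 0.66 and 0.13 CPM in LSD1 KO and 1.39 and 1.43 CPM in WT. Nanos3, which protects migrating germ cells, was higher, at 2.66 and 2.03 CPM in LSD1 KO and 0.44 and 1.20 CPM in WT, and Dnd1 was placed likewise. Dppa3 and Tfap2c overlapped between the genotypes, with Dppa3 at 12.8 and 21.2 CPM in LSD1 KO and 2.54 and 22.6 CPM in WT. The part of germ cell-like cells in the member levels was not tested beyond leaving out their gate.

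Among 18 other genes of the piRNA pathway, which silences transposons in germ cells with small RNAs, 15 were tested and by edgeR's quasi-likelihood test 7 rose and 1 fell in LSD1 KO, with a median log2 fold change of 1.12. Over all genes tested 22.6% were called higher, 21.6% lower and 44.2% in either direction. Tdrd1, called higher, passed the filter on low counts only through its LSD1 KO level. Rnf17, a Tudor domain protein of spermatids, stood at 137 and 142 CPM in LSD1 KO and 6.91 and 6.98 CPM in WT (log2 fold change 4.20, SE 0.10, adjusted p = 0.000131). Tex15, needed for piRNA-directed methylation in the mouse, was at 57.2 and 38.5 CPM in LSD1 KO and 7.17 and 9.04 CPM in WT (log2 fold change 2.42, adjusted p = 0.00154 by edgeR). Pnldc1, the enzyme that trims piRNA precursors, rose by 0.91 on the log2 scale (adjusted p = 0.0166, edgeR), and Tdrd7 fell by 0.91 (adjusted p = 0.0217, edgeR). The Pnldc1 and Tdrd7 calls were lost without LSD1 KO replicate 2 (0.87 and -0.68) and without WT replicate 1 (0.75 and -0.77).

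Of 22 other genes of meiosis, 21 were in the files and 19 were tested. By edgeR's quasi-likelihood test 15 rose, against 22.6% of all genes tested, 0 fell (also 0 at an unadjusted p under 0.05 and with DESeq2) and the median log2 fold change was 2.09. Meioc, which holds germ cells in the meiotic programme, was at 33.6 and 37.0 CPM in LSD1 KO and 0.36 and 0.83 CPM in WT (log2 fold change 5.73, SE 0.36, adjusted p = 0.000622). Dmc1, the meiotic recombinase, was at 31.6 and 39.4 CPM in LSD1 KO and 4.73 and 5.86 CPM in WT (log2 fold change 2.61, adjusted p = 0.000814 by edgeR). Hormad2, the relative of Hormad1, and Rec8, the meiotic cohesin kleisin, rose by 3.07 and 2.20 on the log2 scale (adjusted p = 0.00252 and 0.00109, edgeR). Outside the naive, epiblast and germ cell gates, 12 of 17 tested meiosis genes and 7 of 13 tested piRNA genes were called higher in LSD1 KO, against 20.3% of all genes tested there. The called meiosis genes Syce1, Tex12 and Rpl10l were below the filter's cutoff of 0.153 CPM in both WT libraries in whole EBs. They were tested there only through LSD1 KO and could only be called higher. These lists were written with results of these data known, so nothing is read from their counts.

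**Figure D5:**
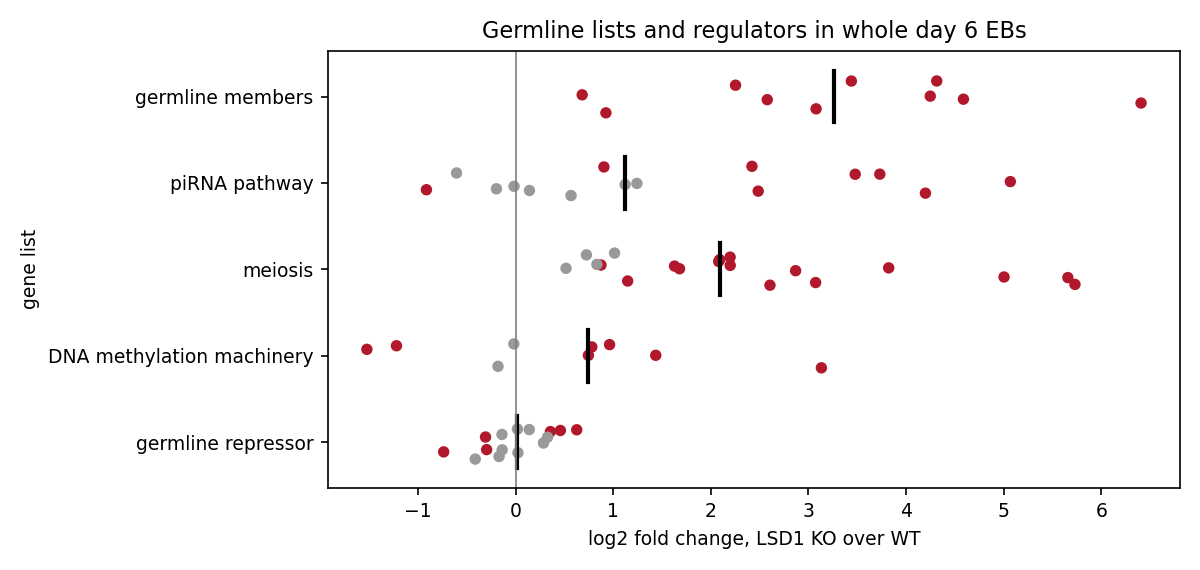
Log2 fold change, LSD1 KO over WT, of each tested gene of the members and of the 4 other lists, with red points for genes called at an adjusted p below 0.05, grey points for the others and a black bar at the median of each list. The medians were 3.26 for the members, 1.12 for the piRNA pathway, 2.09 for meiosis, 0.75 for the methylation genes and 0.02 for the repressors.

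Of the 9 genes that write, maintain or remove DNA methylation, 5 rose and 2 fell by edgeR's quasi-likelihood test, with a median log2 fold change of 0.75, where 22.6% of all genes tested were called higher and 21.6% lower. The rises were in the de novo writers Dnmt3a and Dnmt3b and in Dnmt3l, Uhrf1 and Tet1. Dnmt3l, the cofactor of the de novo methyltransferases, was at 12.5 and 19.7 CPM in LSD1 KO and 0.58 and 2.70 CPM in WT (log2 fold change 3.13, SE 0.68, adjusted p = 0.0158), with a log2 fold change of 2.41 without WT replicate 1 and 4.69 without WT replicate 2. Dnmt3a, a de novo methyltransferase, was at 95.7 and 125 CPM in LSD1 KO and 35.5 and 38.8 CPM in WT (log2 fold change 1.44, adjusted p = 0.00226, edgeR). Dnmt1, the maintenance enzyme, had a log2 fold change of -0.02 (adjusted p = 0.877, edgeR). Tet2 and Tet3, which oxidise methylcytosine, fell by 1.52 and 1.22 on the log2 scale (adjusted p = 0.00113 and 0.00328, edgeR).

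Among 15 repressors of germline genes, the variant Polycomb subunits and the H3K9 methylation factors, 3 rose and 3 fell by edgeR's quasi-likelihood test, with a median log2 fold change of 0.02. These 6 of 15 are close to the 44.2% of all genes tested that were called in either direction. Ehmt2, an H3K9 methyltransferase, fell by 0.74 (adjusted p = 0.00439). L3mbtl2, a subunit of the variant Polycomb complex, rose by 0.63 and Trim28, the corepressor of KRAB zinc finger proteins, by 0.46 on the log2 scale (adjusted p = 0.00593 and 0.0128, edgeR). E2f6 rose by 0.36 (adjusted p = 0.0411, edgeR), at 27.9 and 25.1 CPM in LSD1 KO and 18.8 and 19.0 CPM in WT, and lost its call without any 1 of the 4 libraries (0.29 to 0.42). Trim28 lost its call without either LSD1 KO library (0.46 in both). Mga and Max, the E-box binding subunits, had log2 fold changes of 0.02 and -0.17 (adjusted p = 0.829 and 0.177, edgeR). These changes run beside those of the members, and their part in them was not tested.

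Over the 25 profiles made from gates of at least 30 cells in each library, the genes whose level followed the summed level of the members most closely were sought among 10600 genes. Fkbp5, a stress-responsive immunophilin, came first with a Spearman rho of 0.96 and ran between 11.1 and 75.4 CPM. The pluripotency factor Pou5f1, which is itself a marker of the epiblast gate, followed with a rho of 0.94, and Bax, an apoptosis effector, the kinase gene Dyrk3 and the fucosyltransferase gene Fut9 each had a rho of 0.93 to 0.94. The profiles share libraries and depth and mix both genotypes, so a gene that is higher in LSD1 KO can rank high for that alone. In many WT profiles the sum was largely Tdrkh. In the WT epithelial endoderm gate it was 18.0 and 24.8 CPM with Tdrkh and 3.95 and 5.91 CPM without it. These values are a description of rank order only, and were not computed within LSD1 KO for these genes. Among the members, the rho of a gene with the sum of the other 9 ran between 0.27 for Hormad1 and 0.88 for Stk31 over profiles of both genotypes. Over the 7 LSD1 KO profiles alone the order differed, between -0.32 for Tdrkh and 0.93 for Mael, with 0.54 for Hormad1 and 0.36 for Stk31.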

How the data were processed

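Day 6 EBs were dissociated, 16000 cells were loaded per 10x 3′ v3.1 library, and the authors deposited raw UMI counts per gene and barcode. The submitters' processing notes name Cell Ranger 7.1.0, mm9 and Seurat 4.3.0. With default settings that Cell Ranger version also counts intronic reads. The tables hold 0 mitochondrial genes. Kept barcodes had 500 UMIs or more and 500 genes or more, no doublet caller was run, and the depth is given with the groups. CPM was computed from the UMIs of the kept cells. Exact Poisson and binomial intervals (95%) and the limit of 3 counts for a 0 cover counting error only.

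UMIs were summed per library and fitted with edgeR 4.0.16 (quasi-likelihood test, TMM, filterByExpr, Benjamini-Hochberg over 16953 genes, threshold 0.05) in R 4.3.3. The replicate is the library, and p-values measure the spread between 2 libraries per genotype. An exact permutation test of 2 against 2 cannot go below 0.333. On simulated counts for this comparison, of 16953 genes, 46 of 100 genes changed 2-fold and 87 of 100 changed 4-fold were called, and 24 of 16753 unchanged genes. Replicates differed by more than sampling noise (chi-square over its degrees of freedom, 27.8 in LSD1 KO and 63.1 in WT).

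The members and lists were chosen with earlier results of these data known, and the gate rule (at least 3 markers, largest share of a list, ties left ungated) was set after the files were seen. Named were all members, at most 4 called genes per other list with the largest absolute change and at least 5 CPM in the higher genotype, and the 5 genes most like the members. Some list genes beyond these are named to give a limit or for their known role. Genes were placed with GENCODE M1 on NCBIM37. Alternatives were DESeq2 1.42.0, other filters, scalings and gate rules, a replicate term and leaving out libraries.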

Additional observations from a re-analysis of the deposited data

Results flagged for a closer look

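In barcodes under 100 UMIs, which lie outside the cells that the genotypes were compared in, the 10 members summed to 117 and 116 CPM in LSD1 KO (exact 95% Poisson intervals 103 to 133 and 105 to 129), against 36.4 and 31.0 CPM in WT (29.2 to 44.8 and 25.9 to 36.9). The LSD1 KO signal outside cells was above the WT signal for the sum and close to the level in LSD1 KO cells, 109 and 123 CPM. Hormad1 was at 17.1 and 22.0 CPM in those barcodes of LSD1 KO and 8.68 and 2.46 CPM in WT, and Stk31 at 10.7 and 16.2 CPM in LSD1 KO and 4.13 and 2.46 CPM in WT.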

How the results depend on the processing

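Under the alternatives run, no log2 fold change of a member, of Kdm1a or of the list genes named for their size of change changed sign. The median of the members kept its sign too. Other genes, such as Dnmt1, Mga and Max, were not checked for this. Leaving out libraries gave 4999 to 6666 genes called (4999 without LSD1 KO replicate 2, 7500 with all), 9 members, 2 to 4 repressors (6 with all libraries) and a median member log2 fold change of 2.48 (without WT replicate 1) to 4.22 (without WT replicate 2). Outside the naive, epiblast and germ cell gates, an alternative chosen after seeing the data, that median was 4.05. With cells of a second gate left out, the members summed to 153 CPM in the LSD1 KO epiblast gate and 111 CPM in the LSD1 KO neuron gate. The WT epiblast gate gave 50.9 to 59.6 CPM over all the gate alternatives. With 1 marker fewer asked of a cell, the WT neuron gate gave 35.2 CPM, and 1 marker more left it under 30 cells in a library and gave no value. The share of cells with any member was 20.2% in LSD1 KO and 4.45% in WT at 2000 UMIs per cell and 58.5% and 20.1% without thinning. With library totals in place of TMM, log2 fold changes rose by 0.13 at the median of all genes. Replicate numbers are shared between genotypes, and same-numbered deviations correlated at 0.157 over 2 pairs, too few to show whether the numbers pair the samples, and no label says that they do. A replicate block gave 8097 genes and 9 members called, with Brdt no longer called (0.91). Where 1 library was left in a genotype, it was assumed to vary like those of the other genotype. Members with few UMIs in WT, such as Mael and Taf7l, are limited by counting.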

Other observations

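Cells left ungated, which passed no gate or tied between gates, also differed between genotypes in their germline RNA. They made up 31.5% and 34.0% of the cells in LSD1 KO, against 47.6% and 49.1% in WT. Their median depth was 2763.5 and 1890 UMIs in LSD1 KO and 3392 and 7472 UMIs in WT. Thinning to 5000 UMIs therefore left out most of them in all libraries but WT replicate 2. Among the ungated cells with at least 5000 UMIs, a Ddx4 UMI was seen in 9.12% and 6.29% in LSD1 KO, against 0.47% and 0.21% in WT. A Sycp3 UMI was seen in 9.82% and 8.61% in LSD1 KO, against 0.59% and 0.26% in WT. No Mael UMI fell in the ungated cells of either WT library, while the LSD1 KO libraries had 47 and 28.

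The promoter windows of the other germline lists were read with the same motifs. CACGTG was found in 5 of 13 windows of the piRNA pathway and 4 of 18 windows of the meiosis list, against 7.24% of all windows, and GCGGGAA in 1 of 13 and 6 of 18, against 4.66% of all windows. Of the meiosis windows 3 held both motifs. These counts describe letters and no test was made of them.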
